A study of Mus musculus with 8 samples.

Results

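The Kcnj2 domain is the stretch of mouse chromosome 11 from 110940001 to 111380000 (mm9), between Kcnj2 and the place of the boundary that separates Kcnj2 from Sox9. It was taken by position: every pair of 10 kb bins with both bins in that interval and at least 20 kb between bin starts. This gave 903 bin pairs from 44 bins, of 171405 bin pairs in the whole map. The assay was capture Hi-C, where cross-linked chromatin is cut and ligated, fragments of a chosen region are enriched with probes, and read pairs count how often 2 places were joined. The tissue was whole forelimb and hindlimb buds of E12.5 embryos, homozygous for the edit and made on a G4 embryonic stem cell background, with limb buds of 3 to 8 embryos behind a library. There were 8 mutants with 1 library each: ∆BorC1, ∆BorC1-2, ∆BorC1-4, ∆CTCF, InvC∆Bor, InvC, BorKnockIn and InvIntra. The series' design text says that CTCF sites at the locus were deleted, inserted or inverted with CRISPR/Cas9, and ∆ in a name stands for delta. Which sites each name covers, and where the edits end, is not given in the labels. Wild-type limb buds were not analysed here.

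Topologically associating domains are stretches of chromatin whose parts touch each other more than they touch the next stretch. Many borders hold binding sites of CTCF, a DNA-binding protein that halts the cohesin complex as it extrudes chromatin loops, and sites that face each other often appear as a point of strong contact at the far corner of a domain. Kcnj2 encodes an inward rectifier potassium channel, and Sox9 encodes a transcription factor required for cartilage. In RefSeq's gene order (GRCm38) the first genes after Kcnj2 on the way to Sox9 are the pseudogene Gm11675, the non-coding Gm30158 and Gm30219 and the protein-coding Gm11677; their mm9 positions were not used, so none is placed inside the interval here.

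Total depth was 4901143 contacts for ∆BorC1, 6409072 for ∆BorC1-2, 9045698 for ∆BorC1-4, 4449078 for ∆CTCF, 3056502 for InvC∆Bor, 4938928 for InvC, 5944448 for BorKnockIn and 6234950 for InvIntra. Inside the domain the lowest number was 56924 contacts, in InvC∆Bor, and the highest 172845, in ∆BorC1-4. No pair was at 0 in any library, and the median pair had between 44 and 139 contacts. Precision is thus set by having 1 library a genotype: no test was possible, and each 95% interval covers counting error only.

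Bin coverage was used to read what lies just right of the domain in each library, since the labels do not say which library keeps the border there. The bin from 111390001 to 111400000 had 4 contacts for ∆BorC1, 0 for ∆BorC1-2, 8 for ∆BorC1-4 and 1 for ∆CTCF, against 28151 for InvIntra. A count of 0 allows up to 3 contacts. The bin was also filled in InvC∆Bor (12924 contacts), InvC (21716) and BorKnockIn (13844), so its filling alone does not single out InvIntra. Over 90 bins farther right, coverage in place correlated with ∆BorC1 at r = -0.0664 in InvC∆Bor, -0.0557 in InvC and 0.108 in BorKnockIn. BorKnockIn matched ∆BorC1 at a shift of 20 kb (r = 0.913), so the stretch that is empty in the deletions has no counterpart beside its domain. Read mirrored, the profile matched in InvC∆Bor (r = 0.918) and InvC (0.897), with the mirror image of the empty bin at 112.5 Mb. That image held 131 contacts in InvC∆Bor and 20049 in InvC. InvIntra matched mirrored too (r = 0.844), but 20 kb farther right than InvC, which leaves a filled stretch beside its domain outside the mirrored one. On this reading InvIntra is the library with the border in place, and it is set under the other 7. Every ratio to it rests on that 1 library and on this reading. InvIntra also holds mirrored sequence to the right, which ∆BorC1, ∆BorC1-2, ∆BorC1-4, ∆CTCF and BorKnockIn do not. For these libraries, the state of the border and the orientation of the neighbouring sequence cannot be told apart. Inside the domain every library matched ∆BorC1 in place, with r between 0.992 and 0.999. These r values describe bins that share a capture design.

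The domain as a whole did not lose contacts in one direction. It held 2.88% of all contacts at least 20 kb apart for ∆BorC1, 2.86% for ∆BorC1-2, 2.76% for ∆BorC1-4, 3.04% for ∆CTCF, 2.73% for InvC∆Bor, 2.68% for InvC and 3.08% for BorKnockIn, against 2.70% for InvIntra. Thus 6 of 7 libraries were above InvIntra, most by an amount also seen in unedited flank windows of the same size (given below). The exact Clopper-Pearson interval of the shallowest library, InvC∆Bor, ran from 2.71% to 2.75%. Balanced values gave the other order. These KR values (Knight-Ruiz, scaled so that every bin has the same total) were divided by each library's own mean at the same distance. The ratio was 0.912 for ∆BorC1, 0.918 for ∆BorC1-2, 0.898 for ∆BorC1-4, 0.932 for ∆CTCF, 0.896 for InvC∆Bor, 0.897 for InvC and 0.966 for BorKnockIn, against 0.976 for InvIntra. All 7 were lower than InvIntra with KR values and 6 of 7 higher with raw counts over their own expectation, so the direction of the overall density turns with the balancing. InvIntra had the lowest raw coverage inside the domain, at a median of 0.941 of the 8-library median, and its part in the raw share was not tested.

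What differed by distance was the far end. Contacts beyond 200 kb, which include those between the ends of the domain, were lower in all 7 libraries than in InvIntra with KR values. With raw counts they were lower too, but in BorKnockIn hardly so (0.993 of InvIntra). With KR values they stood at 1.11 times expectation for ∆BorC1 (95% interval 1.09 to 1.12), 1.14 for ∆BorC1-2, 1.11 for ∆BorC1-4 and 1.08 for ∆CTCF. InvC∆Bor had 1.04 (1.02 to 1.06), InvC 1.09 and BorKnockIn 1.22 (1.21 to 1.24), against 1.30 (1.28 to 1.32) in InvIntra. With these KR values no interval overlapped that of InvIntra. With raw counts the ratio to InvIntra ran from 0.859 in InvC∆Bor to 0.993 in BorKnockIn, so that BorKnockIn stood next to InvIntra. With KR values BorKnockIn was also nearest, with a ratio of 0.941, and InvC∆Bor farthest, with 0.799. The remaining ratios to InvIntra were 0.850 for ∆BorC1, 0.877 for ∆BorC1-2, 0.856 for ∆BorC1-4, 0.830 for ∆CTCF and 0.834 for InvC.

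The difference grew with distance. Between 20 and 50 kb the 7 libraries spanned 0.845 to 0.901 and InvIntra had 0.889, so its value lay within theirs. From 110 to 200 kb they spanned 0.909 to 1.00, against 1.01 in InvIntra. From 310 to 430 kb the values were 1.21 for ∆BorC1, 1.26 for ∆BorC1-2, 1.19 for ∆BorC1-4, 1.198 for ∆CTCF, 1.10 for InvC∆Bor, 1.18 for InvC and 1.38 for BorKnockIn, against 1.496 for InvIntra. The raw shares moved apart in both directions: pairs 20 to 50 kb apart held 1.14% to 1.37% of the contacts in the 7 libraries, against 1.05% in InvIntra, and pairs 310 to 430 kb apart held 0.123% to 0.159%, against 0.171% in InvIntra. Every library rose with distance relative to its own expectation, so pairs far apart in the domain stood higher against expectation than near ones in all 8 libraries.

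**Figure D1:**
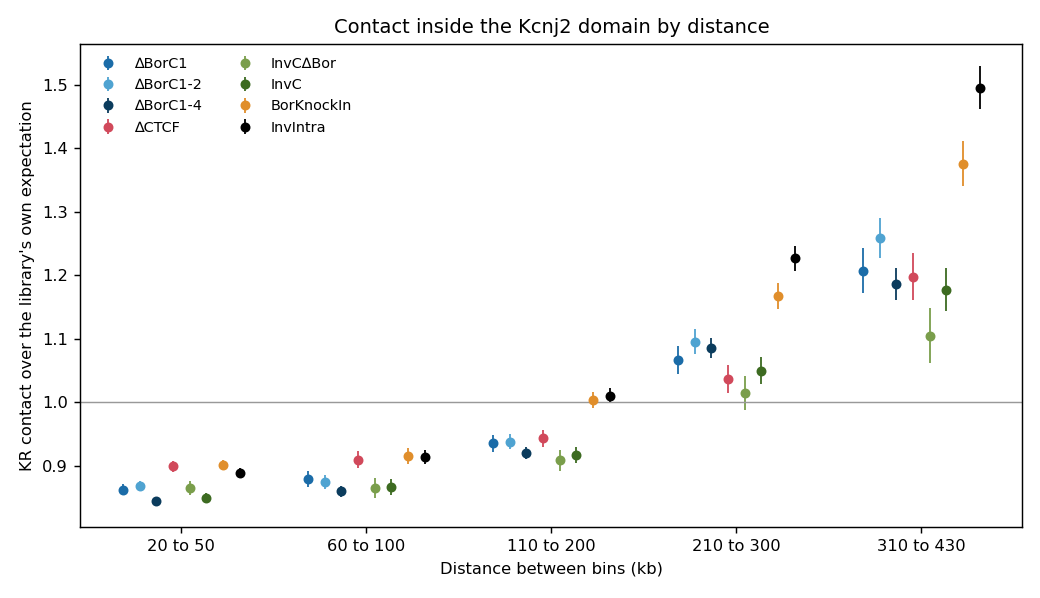
KR contact inside the Kcnj2 domain over each library's own expectation (y axis) in 5 classes of distance between bins in kb (x axis); points are libraries and bars 95% counting intervals. The 7 other libraries and InvIntra overlap at 20 to 50 kb, and at 310 to 430 kb all 7 lie between 1.10 and 1.38, under the 1.496 of InvIntra.

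The slope of log contact on log distance inside the domain was also shallowest in InvIntra. The values were -0.65 for ∆BorC1, -0.64 for ∆BorC1-2, -0.65 for ∆BorC1-4, -0.70 for ∆CTCF, -0.72 for InvC∆Bor, -0.64 for InvC and -0.63 for BorKnockIn, against -0.51 for InvIntra. Over the whole map the slopes lay closer together, from -0.85 to -0.80 in the 7 libraries, against -0.76 in InvIntra. InvIntra thus held more far contacts outside the domain too, and the percentage of domain contacts beyond 200 kb, 13.7% to 15.9% in the 7 libraries against 18.4% in InvIntra, was lower in all 227 flank windows as well. For this percentage the domain's ratio to InvIntra lay within the range of those windows in ∆BorC1, ∆BorC1-2 and BorKnockIn. In ∆BorC1 it was 0.832, with a lowest window of 0.822. It lay under all windows in ∆BorC1-4, ∆CTCF, InvC∆Bor and InvC. Values over each library's own expectation remove the part that InvIntra's far contacts outside the domain share.

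Windows of 440 kb in the unedited flanks, at least 300 kb left or 2 Mb right of the domain, described how far libraries differ where nothing was edited. They overlap each other and are not replicates. For the raw share of all contacts, the domain's ratio to InvIntra lay inside the flank range except in BorKnockIn (1.14, highest window 1.13). For KR values over expectation in the whole domain it lay under all flank windows except in BorKnockIn (0.990, lowest window 0.909). In ∆BorC1 that ratio was 0.934 against at least 0.966, and in InvC∆Bor 0.918 against at least 0.964. For contacts beyond 200 kb with KR values, the domain's ratio to InvIntra lay under the lowest of the 227 flank windows in 6 libraries. For ∆BorC1 it was 0.850 in the domain and at least 0.881 in the flanks, and for InvC∆Bor it was 0.799 in the domain and at least 0.929 in the flanks. BorKnockIn was the exception: its 0.941 lay above the 0.856 of its lowest flank window, and 42 of its windows were at or below the domain. With raw counts the domain was under all flank windows for ∆BorC1-2, InvC∆Bor and InvC, and within the flank range for ∆BorC1, ∆BorC1-4, ∆CTCF and BorKnockIn. The raw ratio was 0.936 in the domain against a lowest window of 0.896 in ∆BorC1, and 0.906 against 0.888 in ∆CTCF. In BorKnockIn the raw ratio of 0.993 was higher than the flank median of 0.947, with 192 windows at or below it.

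**Figure D2:**
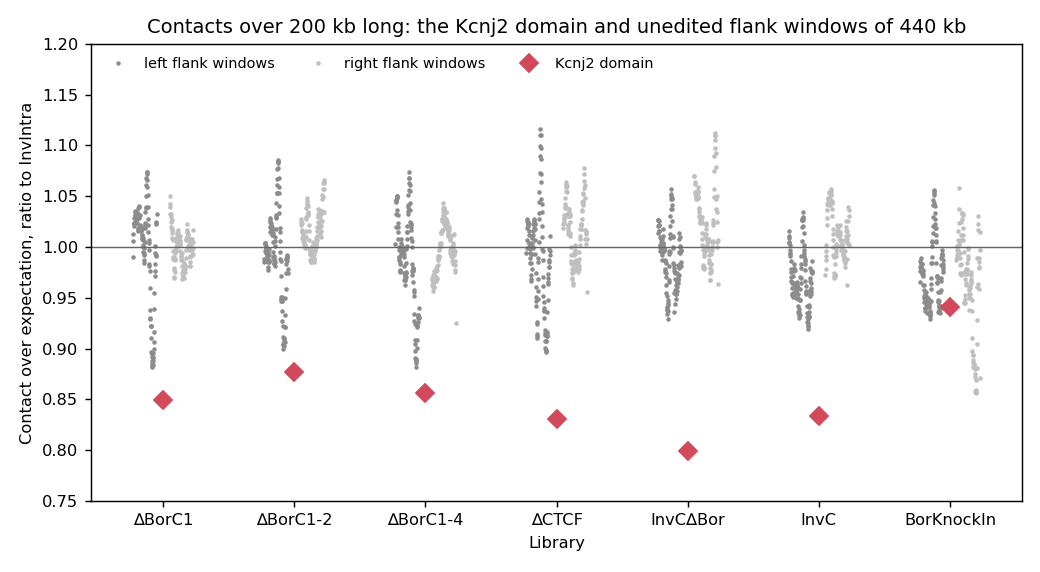
Ratio to InvIntra of contact over expectation beyond 200 kb with KR values (y axis) for 7 libraries (x axis); diamonds are the Kcnj2 domain, dark and light points the left and right flank windows of 440 kb. The diamonds lie under all flank windows except in BorKnockIn, where 0.941 falls inside the range.

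Cut into 4 blocks of 110 kb, numbered from the Kcnj2 side, the domain had its strongest contact over expectation between blocks 1 and 4, the outer ones, in all 8 libraries. This pair had 1.201 times expectation for ∆BorC1, 1.27 for ∆BorC1-2, 1.19 for ∆BorC1-4, 1.16 for ∆CTCF, 1.12 for InvC∆Bor, 1.17 for InvC and 1.36 for BorKnockIn, against 1.48 for InvIntra. As a ratio to InvIntra it ran from 0.755 in InvC∆Bor to 0.919 in BorKnockIn. Blocks 2 and 3 in the middle were also below InvIntra in all 7 libraries, from 0.791 in ∆CTCF to 0.965 in BorKnockIn, against 1.02 in InvIntra. The raw coverage of InvIntra was lowest in the domain within block 2, at 111.13 Mb, with 0.808 of the 8-library median. Its part in this difference was not tested. The right end differed in another way. Within block 4, from 111270001 to 111380000, 6 of the 7 libraries had 0.694 to 0.756, against 0.715 in InvIntra. ∆CTCF alone stood apart there at 0.888. Blocks 3 and 4 together showed the same, with 0.984 in ∆CTCF and 0.759 to 0.836 in the other 6, against 0.816 in InvIntra. The raw coverage of ∆CTCF was lowest in the domain within block 4, at 111.3 Mb, with 0.885 of the 8-library median. Its part in these values was not tested, and the blocks are given with KR values only.

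**Figure D3:**
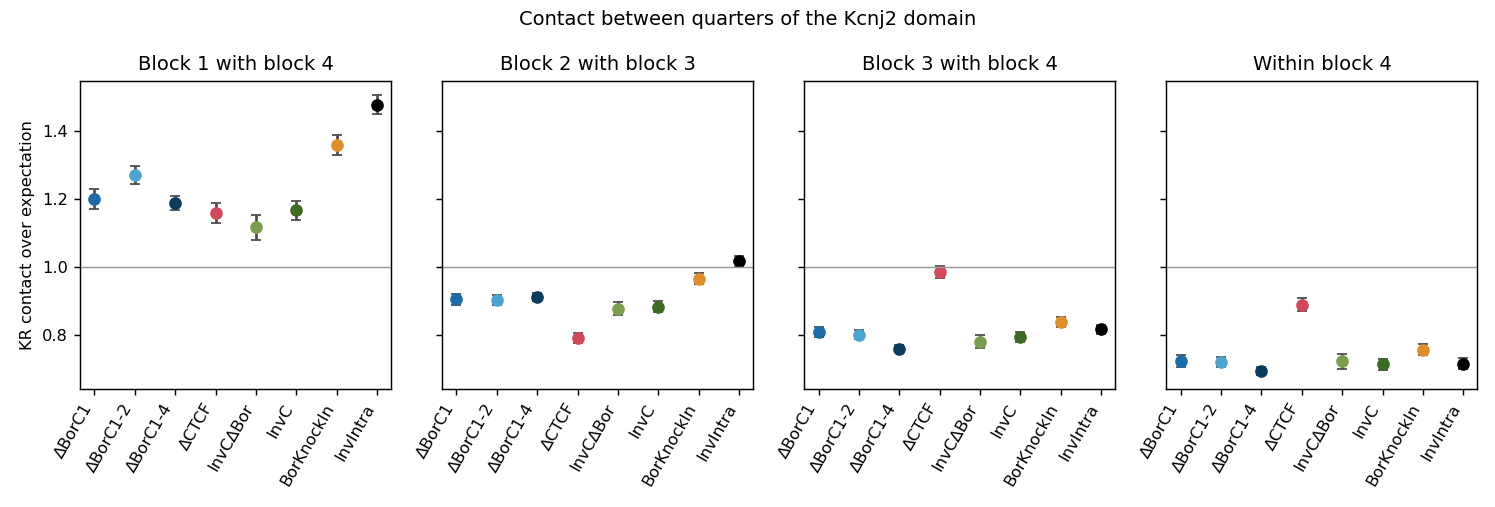
KR contact over expectation (y axis) for 4 pairs of 110 kb blocks of the Kcnj2 domain in the 8 libraries (x axis); bars are 95% counting intervals. InvIntra is highest for block 1 with block 4 (1.48) and block 2 with block 3 (1.02), and ∆CTCF is highest for block 3 with block 4 (0.984) and within block 4 (0.888).

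Tiles of 40 kb located the strongest far contact. In 7 of 8 libraries the highest pair at least 2 tiles apart was the tile at 110.94 Mb, at the left edge, with the tile at 111.26 Mb. It had 1.43 times expectation for ∆BorC1 (1143 contacts), 1.63 for ∆BorC1-2, 1.502 for ∆BorC1-4, 1.14 for ∆CTCF (826 contacts), 1.45 for InvC∆Bor, 1.44 for InvC and 1.67 for BorKnockIn, against 1.75 for InvIntra (1866 contacts). The pair lay short of the domain's outer corner. In InvIntra the next tile, 111.30 Mb, was level with it at 1.74. ∆CTCF was the exception: its highest pair was the left edge with the tile at 111.30 Mb, at 1.30. The outer corner itself, the first 30 kb with the last 30 kb, had 1.27 for ∆BorC1, 1.12 for ∆BorC1-2, 1.17 for ∆BorC1-4, 1.26 for ∆CTCF, 0.910 for InvC∆Bor (154 contacts), 1.32 for InvC and 1.21 for BorKnockIn, against 1.59 (646 contacts) for InvIntra. All 7 were lower than InvIntra, and InvC∆Bor was the lowest, with an interval from 0.772 to 1.07.

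**Figure D4:**
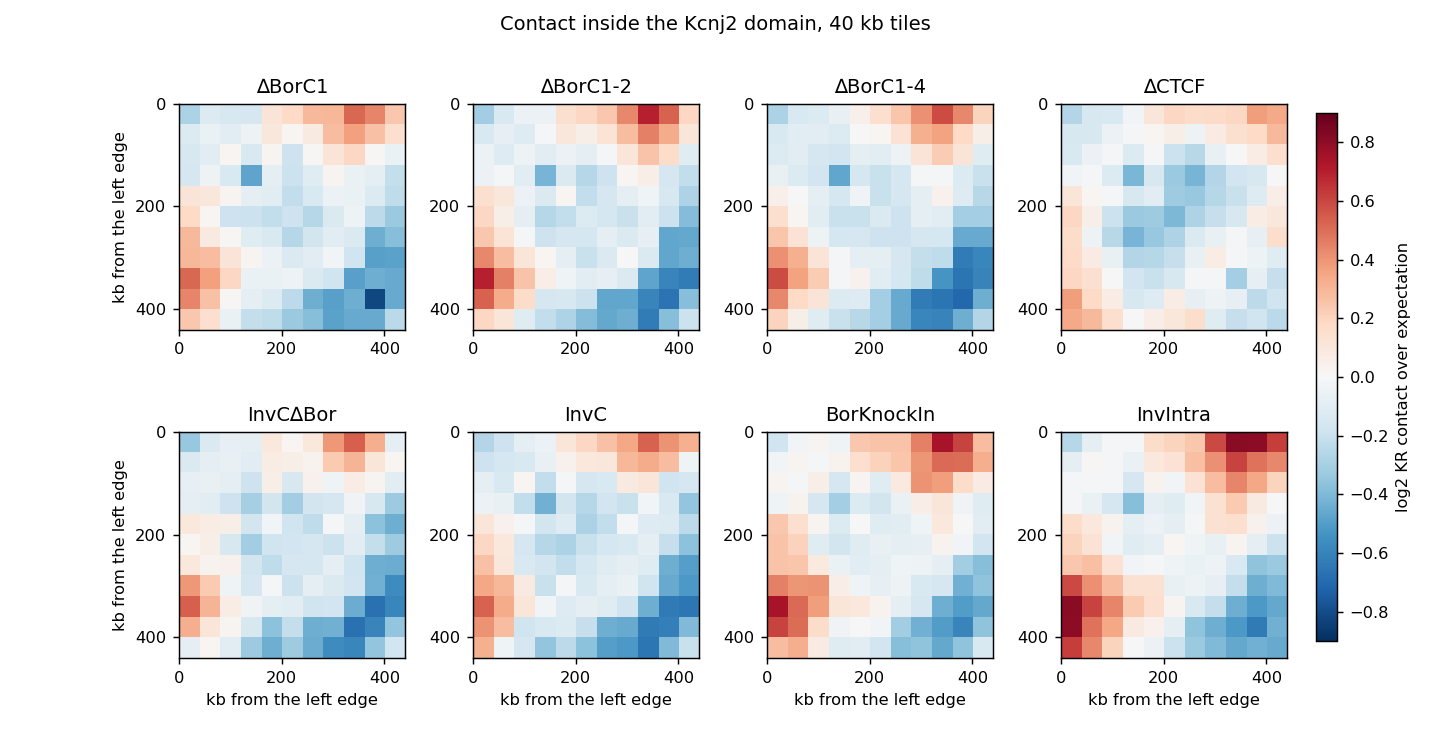
Contact inside the Kcnj2 domain in 40 kb tiles, as log2 of KR over expectation (colour), with both axes in kb from the left edge at 110.94 Mb, 1 panel a library. In every library but ∆CTCF the strongest far pair joins the left edge with the tile at 111.26 Mb (1.75 times expectation in InvIntra). That pair has 1.14 in ∆CTCF, whose strongest joins the left edge with the tile at 111.30 Mb (1.30). The pale lower right corner of ∆CTCF contrasts with the blue one of the other libraries.

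Few tile pairs passed a 1.5-fold difference. Of 66 tile pairs in the domain, 0 were more than 1.5-fold higher than in InvIntra in any of the 7 libraries. Across the map at the same distances the percentage higher was 3.55% for ∆BorC1, 3.8% for ∆BorC1-2, 3.42% for ∆BorC1-4, 3.62% for ∆CTCF, 3.76% for InvC∆Bor, 5.03% for InvC and 5.48% for BorKnockIn. Lower by that fold were 1 pair in ∆CTCF and 1 in InvC∆Bor. The map's percentage lower was 0.516% for ∆BorC1, 0.451% for ∆BorC1-2, 0.387% for ∆BorC1-4, 0.97% for ∆CTCF, 0.26% for InvC∆Bor, 2.58% for InvC and 3.23% for BorKnockIn. In ∆CTCF it was the pair of 110.94 and 111.26 Mb described above, at 0.649 of InvIntra. In InvC∆Bor it was the left edge with the last tile at 111.34 Mb, at 0.613, with 346 contacts against 1308 in InvIntra. With so few calls the count says little, and the median domain tile gives more: its ratio to InvIntra was 0.927 for ∆BorC1, 0.928 for ∆BorC1-2, 0.919 for ∆BorC1-4, 0.949 for ∆CTCF, 0.917 for InvC∆Bor, 0.921 for InvC and 0.997 for BorKnockIn, while the map's median lay between 0.981 and 0.993. The highest tile ratio was the last tile, 111.34 Mb, with itself in every library but ∆CTCF, at 1.14 to 1.24; in ∆CTCF it was 111.18 with 111.34 Mb, at 1.41. The lowest was the left edge with that last tile in 5 of 7, the exceptions being ∆CTCF and InvC.

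Sub-domains were read from the contact that passes over each position, with 100 kb on either side, as log2 of KR over expectation. In 7 of 8 libraries this fell toward the right end and was lowest at 111.28 Mb, the last position that could be measured. There it was -0.40 for ∆BorC1, -0.43 for ∆BorC1-2, -0.49 for ∆BorC1-4, -0.45 for InvC∆Bor, -0.45 for InvC and -0.36 for BorKnockIn, against -0.37 for InvIntra. With 50 kb on either side it was lowest at 111.31 or 111.32 Mb in the same libraries, at -0.60 for ∆BorC1, -0.61 for ∆BorC1-2, -0.65 for ∆BorC1-4, -0.64 for InvC∆Bor, -0.65 for InvC and -0.49 for BorKnockIn, against -0.52 for InvIntra. The right end was thus set apart in every library except ∆CTCF, InvIntra included. A shallower dip lay at 111.08 Mb, or at 111.09 Mb in ∆BorC1-2, with 50 kb on either side. It was between -0.27 and -0.16 in the 7 libraries, against -0.18 in InvIntra. Other dips lay between it and the right end. They were deeper than it in ∆BorC1 (-0.24 at 111.18 Mb against -0.20), InvC∆Bor (-0.22 at 111.17 Mb against -0.18) and ∆CTCF (-0.37 at 111.16 Mb against -0.22). In ∆BorC1-4, BorKnockIn and InvIntra they were shallower. In ∆BorC1-2 (-0.212 at 111.14 Mb against -0.215) and InvC (-0.264 at 111.14 Mb against -0.271) the deepest of them was nearly level with it.

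∆CTCF differed at the right end and in the middle. Its value at 111.28 Mb was -0.07, and with 50 kb on either side it was -0.09 at 111.31 Mb and -0.19 at 111.32 Mb. Its lowest position was in the middle, at 111.16 Mb, with -0.35. This position was picked for the low value of ∆CTCF, so setting the libraries side by side there is a description. It was also the highest position of InvIntra with 50 or 150 kb on either side. The other libraries had at that place -0.15 for ∆BorC1, -0.16 for ∆BorC1-2, -0.14 for ∆BorC1-4, -0.19 for InvC∆Bor, -0.19 for InvC and -0.08 for BorKnockIn, against 0.01 for InvIntra. With KR values all 7 were thus lower than InvIntra in the middle of the domain, and ∆CTCF by the most.

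**Figure D5:**
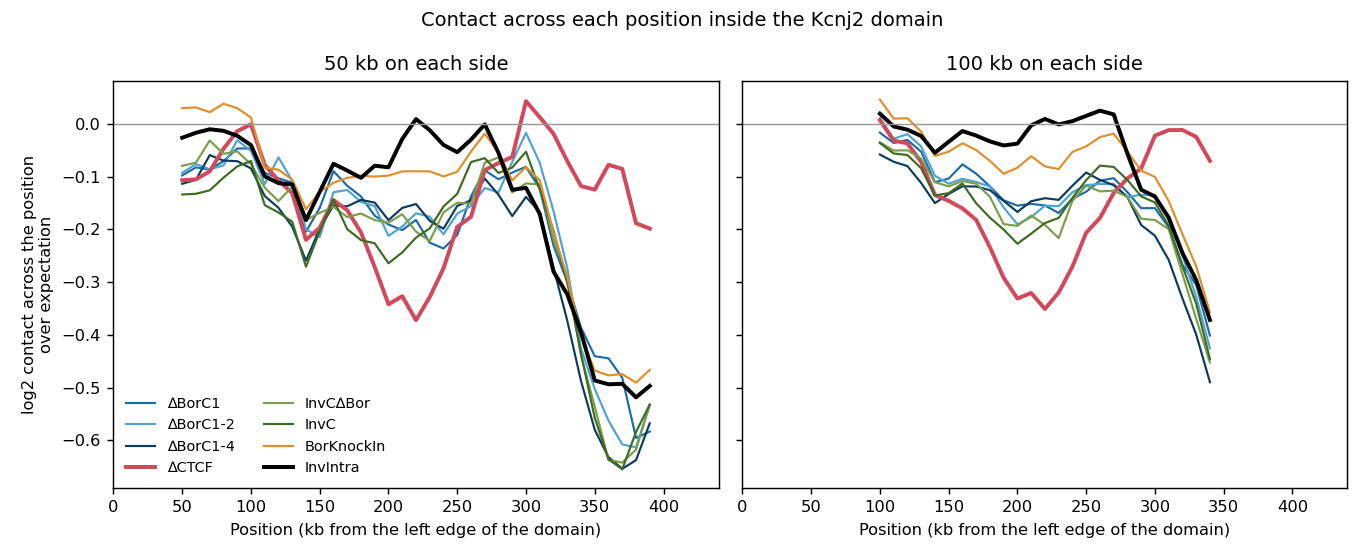
Contact passing over each position of the Kcnj2 domain, as log2 of KR over expectation (y axis) by kb from its left edge (x axis), with 50 kb (left panel) or 100 kb (right panel) on each side; lines are libraries. With 100 kb the red line of ∆CTCF dips in the middle (-0.35 at 111.16 Mb). At 111.28 Mb it is at -0.07, where the other 7 fall to between -0.49 and -0.36. With 50 kb it falls to -0.20 at 111.33 Mb, where the other 7 lie between -0.58 and -0.47.

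∆CTCF was also set against ∆BorC1-4, another library without the border bin; the labels do not say by which sites they differ. At 111.28 Mb, the position of their largest rise, ∆CTCF was higher than ∆BorC1-4 by 0.42 on the log2 scale. The position was picked for this difference, so setting it beside the flanks is a description and not a test. The same difference at 275 positions in the unedited flanks ran from -0.12 to 0.21, so the rise lay outside that range, as it did with raw counts (0.34, flanks -0.15 to 0.17). With 150 kb on either side, which reaches no farther than 111.23 Mb, the rise was 0.13 and lay inside the flank range of -0.11 to 0.20. At 111.16 Mb, picked likewise as the position of the largest fall, ∆CTCF was lower by 0.21. This lay outside the flank range with KR values and inside it with raw counts, where the difference was -0.14. By tile pairs, 3 of 66 were past 1.5-fold higher in ∆CTCF, beside 0.582% across the map, and 0 were lower, beside 0.129%. They were 111.18 with 111.34 Mb, at 1.12 times expectation in ∆CTCF against 0.731 in ∆BorC1-4, 111.22 with 111.30 Mb, at 0.971 against 0.647, and 111.26 with 111.30 Mb, at 0.952 against 0.635. Their ratios were 1.53 (95% interval 1.41 to 1.66), 1.501 (1.39 to 1.62) and 1.501 (1.43 to 1.58), so 2 of them lay at the limit and all 3 intervals reach below it. All 3 join a tile that starts at or left of 111.26 Mb with one that starts at 111.30 or 111.34 Mb. These tile values are given with KR only, and the raw coverage of ∆CTCF was lowest in the domain at 111.30 Mb. The part of that coverage was not tested. The lowest ratio was 0.758, for the left edge with 111.26 Mb, at 1.14 in ∆CTCF against 1.502 in ∆BorC1-4.

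Over the 66 tile pairs, r between ∆CTCF and each other library was 0.464 to 0.583. All pairs among the remaining 7 libraries, InvIntra included, had r between 0.877 and 0.974. The tile pairs share bins, so these are descriptions of how alike the maps were.

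How the domain's contacts were shared out was read from the raw contacts with an end in it. Of these, 20.8% stayed inside for ∆BorC1, 21.3% for ∆BorC1-2, 20.3% for ∆BorC1-4, 22.4% for ∆CTCF, 19.9% for InvC∆Bor, 20.4% for InvC and 23.5% for BorKnockIn, against 21.9% for InvIntra. The share inside was thus lower than in InvIntra in 5 libraries and higher in ∆CTCF and BorKnockIn. The next 440 kb to the right took 15.3% for ∆BorC1, 15.1% for ∆BorC1-2, 14.5% for ∆BorC1-4, 17.2% for ∆CTCF, 17.1% for InvC∆Bor, 18.6% for InvC and 13.6% for BorKnockIn, against 8.59% for InvIntra. The 440 kb to the left took 14.6% in ∆CTCF to 20.3% in BorKnockIn, against 21.6% in InvIntra. The percentage to the right was higher and the percentage to the left lower in all 7 libraries. These percentages are parts of the same total, so a higher part to the right lowers the other parts. They therefore do not show that contact to the left was lost. In InvC∆Bor, InvC and InvIntra the bins to the right hold mirrored sequence and in BorKnockIn shifted sequence, as the coverage profiles above show. The stretch to the right thus has the same coordinates but not the same sequence in each library. In the deletions it takes in the empty bin, so its distance along the edited chromosome need not be the same either.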

How the data were processed

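Capture Hi-C maps of 8 mutant limb bud libraries were analysed. Bowtie2 2.2.6, Juicer and the mm9 build are named in the submitters' processing notes; how reads were filtered is not given in the sources used here. In the raw files, the authors deposited counts of joined read pairs between 10 kb bins. The KR files hold a balanced signal that the authors made from them. Depth ran from 3056502 to 9045698 contacts.

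Expectation was each library's mean KR signal at each distance over the whole map. Shares have exact Clopper-Pearson, ratios log-normal and contacts exact Poisson 95% intervals, which cover counting error only, take read pairs as independent and treat KR scaling as fixed. The bin pairs follow a positional rule. The named positions were the blocks, lowest positions, highest and lowest tile pairs and the corner; tile pairs needed 100 contacts in both libraries. The domain and lists were chosen with earlier results of these data known. On 4 simulated maps the far ratio was recovered within 0.011 and a dip within 0.038 (log2). These maps had the distance expectation and depth of InvIntra, with no differences in bin coverage and no balancing. They therefore do not bear on raw against KR values or on shallower libraries. Python 3.11.15, numpy 2.4.6, pandas 2.3.3 and scipy 1.17.1 were used. Alternatives were raw against KR values, distance minimum, edge and poorly covered bins, depth, expectation, window and fold. No mm9 genome was used, so no sequence is printed.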

Additional observations from a re-analysis of the deposited data

How the results depend on the processing

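Of 189 alternative values for single libraries, 105 kept their direction and moved little, 70 moved and 14 turned round. The cause was not tested for any. Values are medians over the 7 libraries of the ratio to InvIntra unless said. The share of the library, 1.06, was 0.963 with KR values, 1.02 from 50 kb, 1.07 without edge bins or without poorly covered bins, and 1.05 over flank contacts. It turned below 1 with KR values in ∆BorC1 (0.963), ∆BorC1-2 (0.980), ∆BorC1-4 (0.943) and InvC∆Bor (0.927), and from 50 kb in ∆BorC1-4 (0.989) and InvC∆Bor (0.954). KR over expectation, 0.934, was 0.919 from 50 kb and 1.02 with raw counts. Raw counts gave 1.04 for ∆BorC1, 1.02 for ∆BorC1-2, 1.00 for ∆BorC1-4, 1.06 for ∆CTCF, 1.01 for InvC∆Bor and 1.07 for BorKnockIn, and the flank expectation gave 1.02 in BorKnockIn. The share of contacts staying inside, 0.949, was 0.934 with KR values, 0.898 from 50 kb (∆CTCF 0.946) and 0.958 without edge bins or poorly covered bins. Contact beyond 200 kb over expectation, 0.850, was 0.914 with raw counts, and its percentage, 0.842, was 0.887 from 50 kb. The rise of ∆CTCF over ∆BorC1-4 at the right end, 0.42, was 0.13 with 150 kb on either side. Tile pairs past the fold, 2 lower and 0 higher, were 1 lower with raw or thinned counts, 63 lower and 9 higher at 1.2-fold, and 0 lower at 2-fold, summed over 7 libraries of 66 pairs. At 1.2-fold the share across the map was 6.42% to 12.3% lower and 5.26% to 10.52% higher. The KR, edge-bin and thinned settings for the percentage beyond 200 kb, the flank spread and the tiles of ∆CTCF over ∆BorC1-4 were chosen after seeing the data. The 50 kb minimum was not run for contact over expectation beyond 200 kb, which it does not touch. No paired analysis was possible because each genotype had 1 library. Depth limits the corner most, with 154 contacts in InvC∆Bor.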
